A study of Mus musculus with 12 samples.

Results

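A set of 161 genes had its highest level in mouse embryos that were released from an arrest by the inhibitor U0126 and then reached the morula to blastocyst stage at day 4.5. The genes were chosen from the array values themselves. For each of 18194 named genes the brightest probe set on average was read, and a level is the log2 of the deposited intensity plus 1. A gene was taken when its mean level in released day 4.5 embryos was at least 7 and at least 1.5 above the mean of each of the other 5 groups. The distance to the next highest group is called the margin below. The choice left out Elf5, Gata2, Gata3, Sox17, Gata4 and symbols that start with Krt, Zfp, Slc7, Slc6, Slc25, Col4 or Lam, which removed 9 genes that met both limits. All 161 members were among the 9930 genes tested, which reached a level of 5 on at least 2 arrays, and each would have passed through the released day 4.5 arrays alone.

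The study measured RNA of whole preimplantation embryos of ICR mice on 12 arrays, 2 per group. The 3 exposed groups saw the inhibitor, which blocks the kinases that activate ERK. U0126 day 2.5 embryos were held in 20 µM U0126 and were arrested at 4 cells, released day 3.5 embryos were at the 8-cell stage after release from that arrest, and released day 4.5 embryos had become morulae to blastocysts. The 3 control groups carried no inhibitor and were taken as 2-cell embryos at day 1.5, as embryos of 4 to 8 cells at day 2.5, and between morula and blastocyst at day 3.5. No control of day 4.5 was analysed here, so embryo age, time after release and earlier exposure to U0126 cannot be told apart in the released day 4.5 group. Each array used 0.1 µg of total RNA in a protocol with 2 labelling cycles, and in whole embryos fewer cells of a type and less RNA per cell cannot be told apart. The series text mentions repeated experiments, while the sample labels name no separate cultures or animals. A p-value here therefore rests on spread between samples, possibly technical.

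The blastocyst is built from an outer epithelium, the trophectoderm, and an inner cell mass that later divides into epiblast and primitive endoderm. The trophectoderm closes itself with tight junctions and desmosomes, moves ions and water inward to open the cavity, and afterwards attaches to the uterus and gives rise to the trophoblast of the placenta. ERK, a kinase downstream of growth factor receptors, is known in mouse embryos for its role in the choice of primitive endoderm and in the maintenance of trophoblast stem cells.

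Markers of the labelled stages were present. Cdx2, a regulator of trophectoderm, was at 10.23 and 10.08 in released day 4.5 embryos, against 9.81 and 9.50 in control day 3.5 and 3.30 and 2.39 in control day 1.5 embryos. Nanog, a regulator of the epiblast, was at 10.13 and 9.98 in released day 4.5 embryos and at 11.25 and 10.93 in control day 3.5 embryos. Both genes were well above background in the 2 groups labelled morula to blastocyst, but they did not set these groups apart. Released day 3.5 embryos, at the 8-cell stage, had Cdx2 at 9.46 and 8.91 and Nanog at 10.90 and 10.36. Control day 2.5 embryos had Cdx2 at 7.7 and 7.1 and Nanog at 8.6 and 8.2. No member belonged to a list of markers of cumulus, oviduct, uterine stroma, sperm or blood cells, and 3 of the 69 genes of these lists on the array reached a level of 5 on both released day 4.5 arrays (Amhr2, Nr5a2 and Sec14l3). The summed intensity of the cumulus and granulosa list was 1230 to 1380 on the released day 4.5 arrays and 1510 to 5500 on the other 10. Sums of the 4 other lists lay between 80.2 and 175 on the released day 4.5 arrays, against 85.0 to 317 on the others. Within groups the arrays' correlation over tested genes was 0.955 to 0.980.

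The control day 3.5 arrays were unequal for these genes, which bears on every result below that uses them. Replicate 1 lay above replicate 2 in 147 of the 161 members (91.3%, against 56.3% of the tested genes). The median difference was 0.72 for members and 0.07 for the tested genes, and 65 members differed by at least 1 between these arrays. The opposite held, less clearly, in released day 3.5 embryos, where replicate 1 was above replicate 2 in 56 members (34.8%, against 54.1% of the tested genes), with a median difference of -0.28. With control day 3.5 replicate 1 left out, 208 genes met the rule, among them all 161 members, and with replicate 2 left out 112 did, all of them members.

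**Figure D1:**
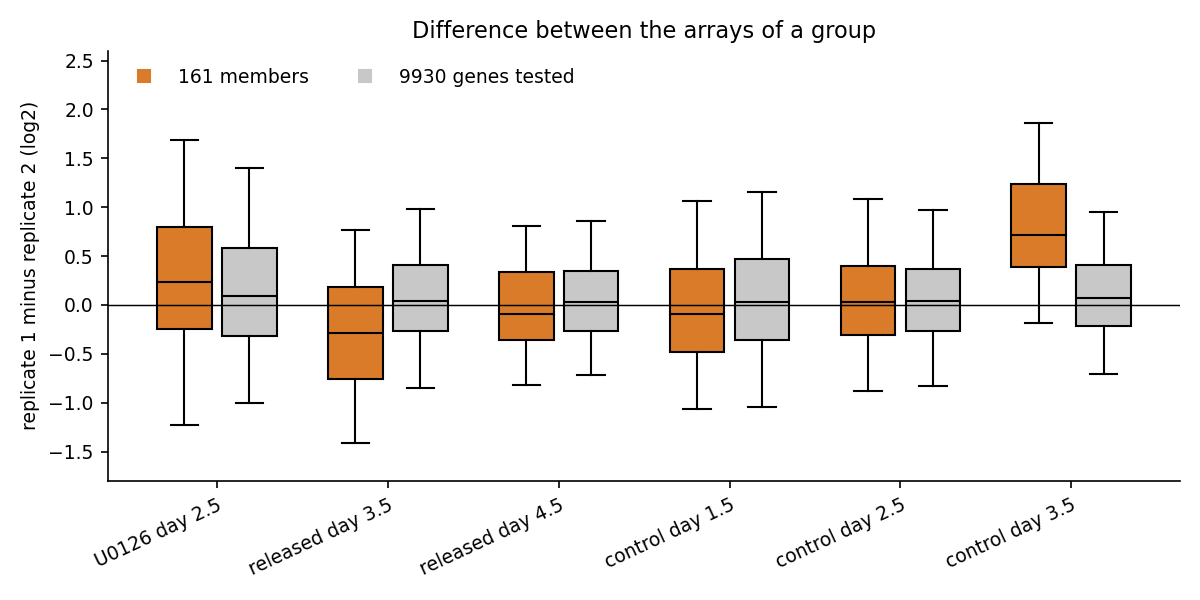
Difference in level (log2 units) between replicate 1 and replicate 2 of each group, for the 161 members and for the 9930 genes tested. Boxes span the quartiles with the median, whiskers the 5th to 95th percentile. The members of the control day 3.5 group sit above 0, with a median of 0.72, while the tested genes have a median of 0.07.

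Gm4926, a predicted gene, had the largest margin, 5.99. Its levels were 10.51 and 11.22 in released day 4.5 embryos, against 4.0 and 4.02 in U0126 day 2.5, 3.98 and 4.63 in released day 3.5, 5.36 and 4.39 in control day 1.5, 4.06 and 3.99 in control day 2.5 and 4.07 and 3.92 in control day 3.5 embryos. It was low on all arrays but the released day 4.5 pair, and the highest of the others came from 2-cell embryos.

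Slc15a2 encodes a proton-coupled transporter of short peptides and had a margin of 5.31. It stood at 12.61 and 12.87 in released day 4.5 embryos, against 3.40 and 3.02 in U0126 day 2.5, 5.52 and 7.70 in released day 3.5, 3.30 and 3.40 in control day 1.5, 3.43 and 3.36 in control day 2.5 and 7.72 and 7.15 in control day 3.5 embryos. The arrested and early control embryos had it near the lower end of the scale, the 8-cell and day 3.5 groups in the middle, and the released day 4.5 arrays far above both. Dmkn, which encodes the secreted epidermal protein dermokine, stood at 10.15 and 10.43 in released day 4.5 embryos, against 2.76 and 2.77 in U0126 day 2.5, 4.45 and 5.80 in released day 3.5, 2.72 and 2.77 in control day 1.5, 2.66 and 2.77 in control day 2.5 and 4.31 and 4.54 in control day 3.5 embryos. It was near the array's background in the early groups and higher in released day 3.5 and control day 3.5 embryos. Ndrg1, a gene induced by hypoxia and cell stress that is known to protect trophoblast, stood at 12.69 and 12.92 in released day 4.5 embryos, against 6.68 and 6.44 in U0126 day 2.5, 6.86 and 8.72 in released day 3.5, 4.61 and 4.09 in control day 1.5, 6.63 and 5.41 in control day 2.5 and 8.27 and 6.87 in control day 3.5 embryos. By this probe set Ndrg1 was present in all groups from day 2.5 on, and its highest array outside released day 4.5 belonged to released day 3.5 embryos. Other probe sets of the gene differed at day 2.5. A low probe set read 3.22 and 3.08 in control and 3.01 and 2.96 in U0126 day 2.5 embryos. A higher probe set read 5.71 and 4.37 in control and 5.66 and 4.26 in U0126 day 2.5 embryos. Tmsb4x encodes thymosin beta, a small protein that holds actin monomers. It was at 11.37 and 11.30 in released day 4.5 embryos, against 3.51 and 3.25 in U0126 day 2.5, 5.88 and 6.95 in released day 3.5, 4.47 and 3.95 in control day 1.5, 4.13 and 4.20 in control day 2.5 and 6.38 and 5.79 in control day 3.5 embryos.

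**Figure D2:**
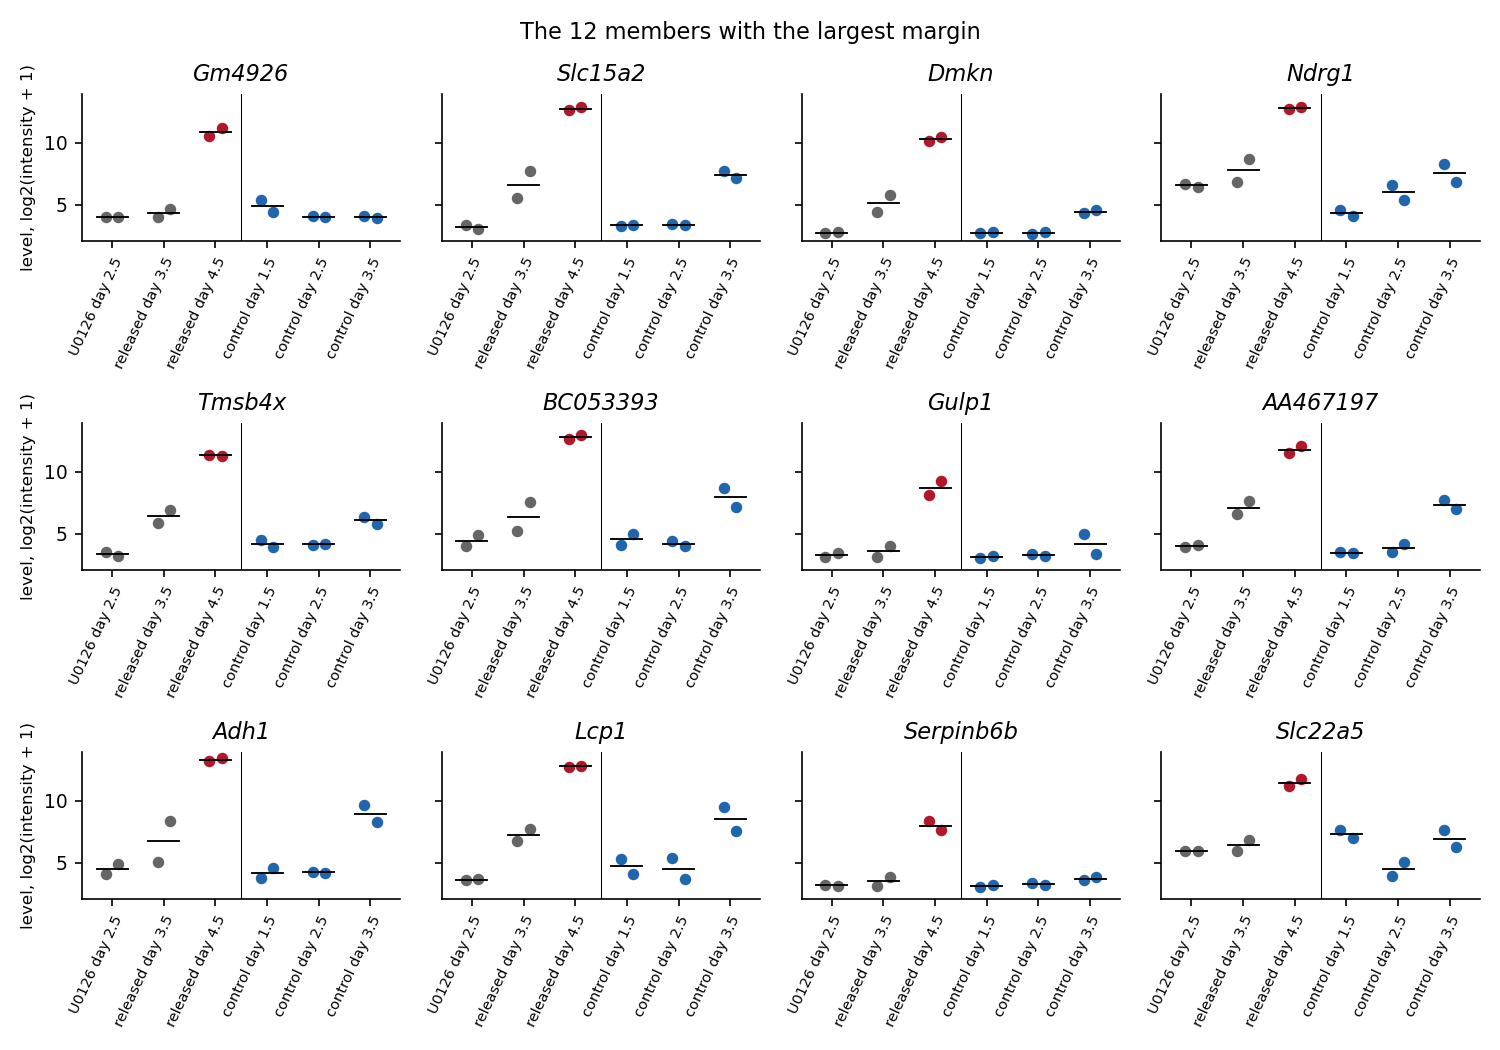
Level, log2(intensity + 1), on each array for the 12 members with the largest margin. Points are single arrays, short lines group means, red the released day 4.5 group, grey the other U0126-exposed groups and blue the controls. The red points lie above all others in every panel, as the choice of the genes requires, and the 8-cell and day 3.5 groups lie between for most genes.

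The remaining 7 of the 12 largest margins ran from 4.14 to 4.86. BC053393 was at 12.64 and 12.94 in released day 4.5 embryos, against 3.98 and 4.89 in U0126 day 2.5, 5.24 and 7.53 in released day 3.5, 4.12 and 5.0 in control day 1.5, 4.40 and 4.0 in control day 2.5 and 8.71 and 7.14 in control day 3.5 embryos. Gulp1, an adaptor for the uptake of dying cells, was at 8.10 and 9.26 in released day 4.5 embryos, against 3.13 and 3.44 in U0126 day 2.5, 3.16 and 3.99 in released day 3.5, 3.07 and 3.21 in control day 1.5, 3.35 and 3.18 in control day 2.5 and 5.01 and 3.39 in control day 3.5 embryos. It exceeded a level of 5 outside the released day 4.5 group on control day 3.5 replicate 1 alone. AA467197, whose human counterpart encodes a small mitochondrial protein of the respiratory chain, was at 11.51 and 12.07 in released day 4.5 embryos, against 3.92 and 4.06 in U0126 day 2.5, 6.59 and 7.63 in released day 3.5, 3.55 and 3.42 in control day 1.5, 3.51 and 4.19 in control day 2.5 and 7.71 and 6.98 in control day 3.5 embryos. Adh1 encodes an alcohol dehydrogenase that also oxidises retinol, and it was at 13.19 and 13.44 in released day 4.5 embryos, against 4.06 and 4.94 in U0126 day 2.5, 5.10 and 8.37 in released day 3.5, 3.75 and 4.54 in control day 1.5, 4.29 and 4.20 in control day 2.5 and 9.65 and 8.26 in control day 3.5 embryos. The released day 3.5 arrays of Adh1 lay far apart. Lcp1, an actin-bundling plastin, was at 12.75 and 12.82 in released day 4.5 embryos, against 3.65 and 3.66 in U0126 day 2.5, 6.76 and 7.70 in released day 3.5, 5.34 and 4.09 in control day 1.5, 5.35 and 3.72 in control day 2.5 and 9.48 and 7.55 in control day 3.5 embryos. Slc22a5, the carnitine transporter, was at 11.20 and 11.72 in released day 4.5 embryos, against 5.93 and 5.98 in U0126 day 2.5, 5.95 and 6.85 in released day 3.5, 7.65 and 7.0 in control day 1.5, 3.91 and 5.03 in control day 2.5 and 7.61 and 6.23 in control day 3.5 embryos. Its 2-cell arrays were about as high as those of control day 3.5 embryos. Serpinb6b, an intracellular inhibitor of serine proteases from a family with near-identical mouse copies, was at 8.36 and 7.61 in released day 4.5 embryos and at 3.88 or less on the other 10 arrays.

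The 250 bases before the start of the gene are shown for the 5 members with the largest margin that had an entry in the promoter table and at least 1 of 10 searched motifs, because these are the genes that the set's pattern marks most. The sequences are RefSeq's for build GRCm38.p6, read 5′ to 3′ on the gene's own strand, with motif matches in capitals. Slc15a2 lies at chr16:36784963-36785212, minus strand, Dmkn at chr7:30763506-30763755, plus strand, Tmsb4x at chrX:167209219-167209468, minus strand, Gulp1 at chr1:44551421-44551670, plus strand and AA467197 at chr2:122637637-122637886, plus strand.
Slc15a2: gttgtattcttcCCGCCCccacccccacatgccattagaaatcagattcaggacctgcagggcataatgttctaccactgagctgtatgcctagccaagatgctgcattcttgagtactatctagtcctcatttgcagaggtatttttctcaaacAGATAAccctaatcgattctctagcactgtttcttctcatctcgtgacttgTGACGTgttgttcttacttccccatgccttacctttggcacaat
Dmkn: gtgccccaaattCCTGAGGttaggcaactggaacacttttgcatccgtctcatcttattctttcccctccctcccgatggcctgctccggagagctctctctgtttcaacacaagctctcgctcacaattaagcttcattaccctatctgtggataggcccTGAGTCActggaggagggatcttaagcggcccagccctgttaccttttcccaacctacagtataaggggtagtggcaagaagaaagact
Tmsb4x: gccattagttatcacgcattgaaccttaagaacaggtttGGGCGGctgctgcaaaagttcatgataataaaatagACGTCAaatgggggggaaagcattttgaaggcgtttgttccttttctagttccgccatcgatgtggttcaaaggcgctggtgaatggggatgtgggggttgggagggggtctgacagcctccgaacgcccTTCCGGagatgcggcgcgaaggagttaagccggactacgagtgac
Gulp1: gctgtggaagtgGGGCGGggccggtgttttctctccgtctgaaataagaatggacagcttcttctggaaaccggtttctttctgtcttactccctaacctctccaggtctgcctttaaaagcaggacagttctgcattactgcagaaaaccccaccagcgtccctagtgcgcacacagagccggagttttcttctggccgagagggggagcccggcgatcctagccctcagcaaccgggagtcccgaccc
AA467197: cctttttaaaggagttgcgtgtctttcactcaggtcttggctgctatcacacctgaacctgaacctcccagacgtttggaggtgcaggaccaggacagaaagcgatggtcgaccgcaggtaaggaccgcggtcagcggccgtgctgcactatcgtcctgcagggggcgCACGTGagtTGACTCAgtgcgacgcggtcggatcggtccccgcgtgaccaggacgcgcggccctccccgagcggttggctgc
The capitals mark, in Slc15a2, a KLF/SP, a GATA and a CRE match. Dmkn holds a TFAP2 and an AP-1 match, and AA467197 an E-box beside an AP-1 match. Tmsb4x holds a KLF/SP, a CRE and an ETS match, and Gulp1 a KLF/SP match. Dmkn has 3 annotated starts and the other 4 genes have 1.

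Promoters were listed for 136 of the 161 members. The AP-1 motif (TGANTCA, both strands) stood in 10.3% of members' promoters, in 4.07% of those of tested genes and in 6.87% of all 27025 promoters. The ETS motif (CCGGAA) stood in 10.3% of members', 24.2% of tested and 12.2% of all promoters. The KLF/SP motif (GGGCGG) stood in 61.0% of members', 60.7% of tested and 32.9% of all promoters, with a median GC content of 59.6% in members', 60.0% in tested and 52.0% in all promoters. TEAD (GGAATG) stood in 16 of 136 members' (11.8%), in 818 of 8157 tested and in 12.6% of all promoters. The motif AGATAA, known for the GATA factors, stood in 7.35% of members', 5.32% of tested and 10.3% of all promoters. TFAP2 (CCTGAGG) stood in 5.88%, 6.84% and 6.45%, in the same order of sets. CRE (TGACGT) had 9.56%, 10.7% and 6.56%. The E-box (CACGTG) had 8.09%, 9.01% and 6.05%. ESRR (AAGGTCA) had 4.41%, 2.66% and 4.05%. The core of the TATA box, TATAAA, had 3.68% in members and 5.98% in tested genes, and it stood in 3504 of all 27025 promoters. Motifs were searched on both strands and could overlap. These are matches of letters in a fixed window and no binding was measured.

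Over all 161 members the mean level in released day 4.5 embryos ran from 7.02 to 13.90, with a median of 9.04. The margin had a median of 1.99, and it was at least 2 in 80 members, at least 3 in 31 and at least 4 in 13. Both released day 4.5 arrays lay above all 10 other arrays in 161 of 161 members, against 12.5% of tested genes, which the choice itself largely fixes. Their lower array exceeded the highest other array by at least 1.5 in 75 members and by under 1 in 28. The smallest such gap was 0.23. At the margin limit, Cap1 (1.51), Ptgr1 (1.51) and Ddt (1.51) were just inside, and Ldoc1 (1.50), Hebp1 (1.49) and Coro7 (1.49) just outside. At the level limit, Proser2 (7.02), Lancl2 (7.03) and Ccdc68 (7.04) were just inside, and Glipr2 (6.95), Grcc10 (6.94) and Fam25c (6.93) just outside.

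Few members were restricted to released day 4.5 embryos. Of the 161, 88 reached a level of 7 on at least 1 other array, and 7 stayed under 5 on all 10 others. These 7, singled out after their values were seen, were Adam19, Cdk14, Gstk1, Klk7, Myo1e, Plac1 and Serpinb6b. Klk7, a kallikrein protease of the skin, was at 8.0 and 7.56 in released day 4.5 embryos, against 3.15 and 3.12 in U0126 day 2.5, 3.95 and 4.28 in released day 3.5, 3.36 and 3.01 in control day 1.5, 3.13 and 3.01 in control day 2.5 and 3.77 and 3.93 in control day 3.5 embryos. Plac1, an X-linked gene of the placenta, was at 8.43 and 7.99 in released day 4.5 embryos, against 2.73 and 2.50 in U0126 day 2.5, 4.22 and 4.53 in released day 3.5, 3.0 and 2.76 in control day 1.5, 2.80 and 3.61 in control day 2.5 and 4.10 and 3.38 in control day 3.5 embryos. A level under 5 on all arrays of the U0126 day 2.5, control day 1.5 and control day 2.5 groups was seen in 58 members, and under 5 on both control day 3.5 arrays in 11.

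**Figure D3:**
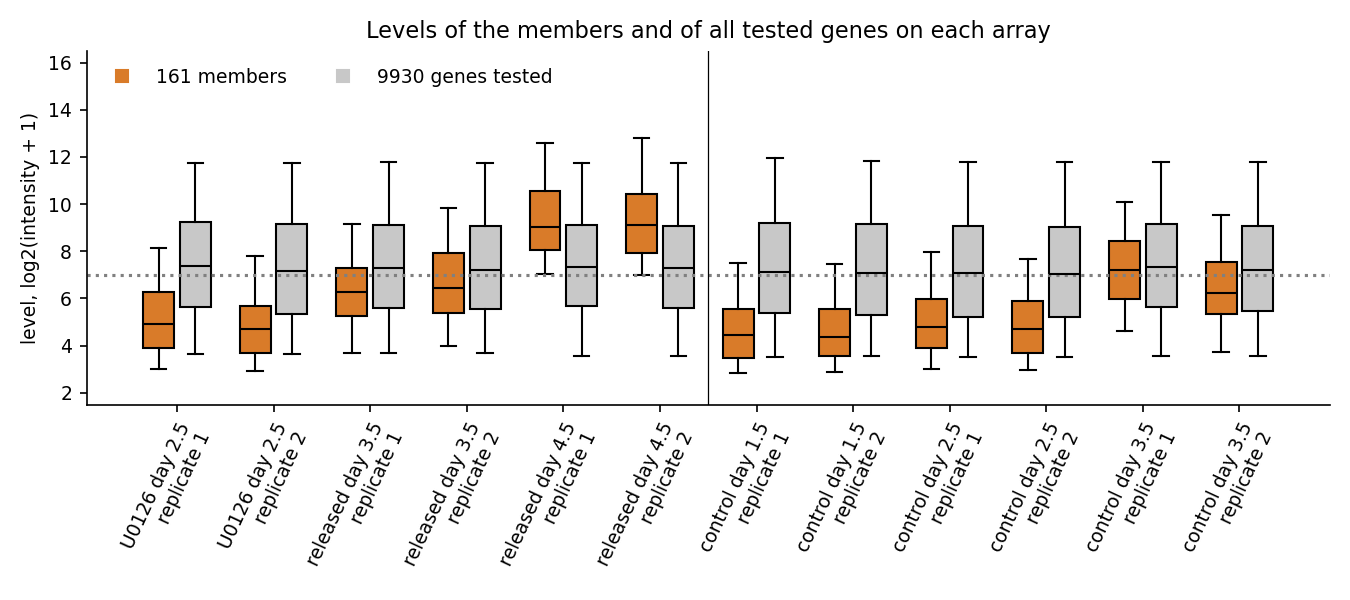
Level, log2(intensity + 1), of the 161 members and of the 9930 tested genes on each of the 12 arrays. Boxes span the quartiles with the median, whiskers the 5th to 95th percentile, and the dotted line is the level limit of 7. Members' medians are 9.04 and 9.12 on the released day 4.5 arrays, 6.29 and 6.46 in released day 3.5, and 7.20 and 6.25 in control day 3.5 embryos, and under 5 on the 6 earlier arrays.

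The next highest group was control day 3.5 for 107 members (66.5%) and released day 3.5 for 40 (24.8%). Among the 2169 other tested genes that were highest in released day 4.5 embryos these shares were 55.2% and 24.0%. The members' median level per array was 4.92 and 4.71 in U0126 day 2.5, 6.29 and 6.46 in released day 3.5 and 9.04 and 9.12 in released day 4.5 embryos. In controls it was 4.47 and 4.38 at day 1.5, 4.80 and 4.70 at day 2.5, and 7.20 and 6.25 at day 3.5. The exposed groups and the controls each had their lowest median in the first group and their highest in the last. The median of all tested genes lay between 7.03 and 7.37 on every array.

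Contrasts with released day 4.5 embryos were used to choose the genes and are given only as values. The median difference was 2.10 against control day 3.5, 2.41 against released day 3.5, 3.99 against U0126 day 2.5, 4.09 against control day 2.5 and 4.49 against control day 1.5 embryos. Calls are not counted for these contrasts.

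Genes of trophoblast were represented by 11 of the 38 tested genes of that list. For this and the lists below, the share over all tested genes was 161 of 9930. The lists were chosen with earlier results of these data known. A gene can stand on more than 1 list, as Tspan8 and Lcp1 do, so counts by role share genes. Fabp3, a fatty acid carrier, was at 14.06 and 13.50 in released day 4.5 embryos, against 9.40 and 7.72 in U0126 day 2.5, 11.29 and 11.48 in released day 3.5, 4.41 and 3.93 in control day 1.5, 8.20 and 7.46 in control day 2.5 and 11.90 and 11.07 in control day 3.5 embryos. Tspan8, a tetraspanin of epithelial membranes, was at 12.93 and 13.10 in released day 4.5 embryos, against 5.50 and 7.11 in U0126 day 2.5, 8.04 and 9.45 in released day 3.5, 6.52 and 6.12 in control day 1.5, 7.10 and 6.74 in control day 2.5 and 10.29 and 9.05 in control day 3.5 embryos. Both were already high in the 8-cell and day 3.5 groups. Eomes and Tfap2a, transcription factors of trophoblast singled out after their values were seen, were likewise next highest in control day 3.5 embryos. Eomes was at 11.24 and 10.99 in released day 4.5 embryos, against 6.65 and 4.20 in U0126 day 2.5, 7.51 and 7.62 in released day 3.5, 3.94 and 4.25 in control day 1.5, 4.78 and 5.02 in control day 2.5 and 9.19 and 8.0 in control day 3.5 embryos. Tfap2a was at 10.12 and 10.36 in released day 4.5 embryos, against 3.95 and 4.21 in U0126 day 2.5, 6.33 and 6.15 in released day 3.5, 5.33 and 4.87 in control day 1.5, 4.80 and 5.74 in control day 2.5 and 9.19 and 7.21 in control day 3.5 embryos. The U0126 day 2.5 arrays of Eomes differed by more than those of any other of these 4 genes, and all released day 4.5 arrays lay above the rest. The other members on the list were Ndrg1, Lcp1, Tmprss2, Dsc2, Tinagl1, Plac1 and Gjb5.

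Adhesion and junction genes gave 6 of 38 tested genes. Lgals1, which encodes a galectin, a lectin that binds cell surface sugars, had the highest mean level of all members, 13.99 and 13.81 in released day 4.5 embryos, against 6.85 and 4.57 in U0126 day 2.5, 9.46 and 10.78 in released day 3.5, 5.36 and 5.43 in control day 1.5, 5.16 and 4.41 in control day 2.5 and 11.79 and 9.87 in control day 3.5 embryos. Dsc2, a desmosomal cadherin, was at 9.48 and 9.58 in released day 4.5 embryos, against 3.76 and 3.06 in U0126 day 2.5, 5.70 and 6.60 in released day 3.5, 5.16 and 5.46 in control day 1.5, 4.03 and 3.88 in control day 2.5 and 7.84 and 6.50 in control day 3.5 embryos. Tjp3, a scaffold of tight junctions, was at 8.71 and 8.81 in released day 4.5 embryos, against 5.13 and 5.19 in U0126 day 2.5, 5.64 and 6.07 in released day 3.5, 5.35 and 6.08 in control day 1.5, 5.26 and 4.61 in control day 2.5 and 6.56 and 6.08 in control day 3.5 embryos. Lgals1 and Dsc2 were higher in released day 3.5 than in U0126 day 2.5 embryos on all arrays, while Tjp3 differed by less. Tspan8, Cldn3 and Gjb5 were the others on the list.

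Actin, annexin and S100 genes gave 11 of 42 tested genes. S100a10, the partner of an annexin at the membrane, was at 11.88 and 12.08 in released day 4.5 embryos, against 6.32 and 6.85 in U0126 day 2.5, 10.09 and 10.71 in released day 3.5, 3.84 and 4.80 in control day 1.5, 8.33 and 8.81 in control day 2.5 and 10.47 and 10.07 in control day 3.5 embryos. Msn encodes moesin, which links actin to the membrane, and was at 10.73 and 10.70 in released day 4.5 embryos, against 6.45 and 5.70 in U0126 day 2.5, 7.13 and 8.28 in released day 3.5, 4.97 and 5.45 in control day 1.5, 6.63 and 6.13 in control day 2.5 and 8.41 and 7.35 in control day 3.5 embryos. S100a10 was high from control day 2.5 on and lower in arrested embryos of the same day, while Msn overlapped between those groups. Lcp1, Tmsb4x, Cnn2, Tpm1, Anxa3, Capg, Zyx, Flna and Anxa6 completed the 11.

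Transporters and ion pumps gave 7 of 31 tested genes, with levels in released day 4.5 embryos from 7.32 to 12.7. Slc9a3r1, a scaffold of apical membrane transporters, was at 11.45 and 11.50 in released day 4.5 embryos, against 7.65 and 7.43 in U0126 day 2.5, 9.12 and 9.82 in released day 3.5, 7.84 and 8.87 in control day 1.5, 6.81 and 6.75 in control day 2.5 and 9.87 and 9.53 in control day 3.5 embryos. Atp12a, a proton and potassium pump, was at 9.72 and 9.19 in released day 4.5 embryos, against 4.42 and 3.16 in U0126 day 2.5, 6.49 and 5.72 in released day 3.5, 2.86 and 2.89 in control day 1.5, 3.01 and 4.02 in control day 2.5 and 8.59 and 6.94 in control day 3.5 embryos. Atp12a was near the array's background in 2-cell embryos and Slc9a3r1 was not. Slc44a4, a choline transporter, was at 9.63 and 9.16 in released day 4.5 embryos, against 4.99 and 4.38 in U0126 day 2.5, 6.08 and 6.39 in released day 3.5, 4.04 and 4.93 in control day 1.5, 5.05 and 5.04 in control day 2.5 and 6.83 and 5.96 in control day 3.5 embryos. The others were Slc15a2, Slc38a2, Trpm6 and Slc40a1.

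Proteases, their inhibitors and matrix genes gave 5 of 29 tested genes. Tmprss2, a membrane-bound serine protease of epithelia, was at 10.60 and 10.78 in released day 4.5 embryos, against 3.61 and 2.97 in U0126 day 2.5, 5.68 and 7.31 in released day 3.5, 3.20 and 4.0 in control day 1.5, 2.82 and 2.70 in control day 2.5 and 8.01 and 6.63 in control day 3.5 embryos. Prss8, a membrane-anchored protease that activates epithelial sodium channels, was at 8.99 and 8.64 in released day 4.5 embryos, against 7.75 and 5.49 in U0126 day 2.5, 6.62 and 6.08 in released day 3.5, 5.98 and 4.47 in control day 1.5, 3.67 and 2.96 in control day 2.5 and 8.23 and 6.36 in control day 3.5 embryos. The arrays of Prss8 lay far apart in U0126 day 2.5 and in control day 3.5 embryos. Sparc, a secreted matrix protein also made by primitive endoderm, was at 8.72 and 8.52 in released day 4.5 embryos, against 3.79 and 4.43 in U0126 day 2.5, 6.82 and 6.46 in released day 3.5, 3.25 and 3.54 in control day 1.5, 4.17 and 3.79 in control day 2.5 and 6.56 and 5.37 in control day 3.5 embryos. Tinagl1 and Fn1 were the others.

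Lists of other roles held 0 to 3 members each, beside 161 members among all 9930 tested genes. Primitive endoderm gave 2 of 27 tested genes. Pdgfra, a growth factor receptor that marks this lineage, was at 8.30 and 9.38 in released day 4.5 embryos, against 4.58 and 5.51 in U0126 day 2.5, 5.04 and 5.73 in released day 3.5, 3.85 and 3.84 in control day 1.5, 6.53 and 7.12 in control day 2.5 and 7.53 and 6.39 in control day 3.5 embryos. It was the lone member on the list of 34 tested growth factor, receptor and signalling genes. Lipid handling gave 3 of 34, among them Plin2, a coat protein of lipid droplets, at 12.24 and 11.60 in released day 4.5 embryos, against 7.38 and 7.48 in U0126 day 2.5, 9.86 and 10.08 in released day 3.5, 8.65 and 9.32 in control day 1.5, 8.0 and 7.39 in control day 2.5 and 10.68 and 9.59 in control day 3.5 embryos. ERK targets and immediate-early genes gave 2 of 30, Klf6 and Btg2. Klf6, a zinc finger factor induced early by growth signals, was at 9.96 and 9.97 in released day 4.5 embryos, against 6.29 and 5.67 in U0126 day 2.5, 7.74 and 8.02 in released day 3.5, 4.96 and 3.89 in control day 1.5, 4.15 and 5.03 in control day 2.5 and 8.55 and 7.69 in control day 3.5 embryos. Plin2 was well above background in every group, and the chosen probe set of Klf6 was lowest in the controls of day 1.5 and 2.5. Other tested Klf6 probe sets were divided. One was as low under U0126 (3.03 and 3.11) as in control day 2.5 embryos (2.85 and 3.10). Another was higher under U0126 (6.3 and 4.7) than in control day 2.5 embryos (4.1 and 3.8). Stress, hypoxia and p53 targets gave 2 of 56 (Ndrg1 and Gsta4), epiblast and pluripotency genes 1 of 30 (Upp1) and imprinted genes 1 of 18 (Sfmbt2). Lysosome genes (36 tested) and interferon genes (14 tested) gave 0. In all, 42 members stood on at least 1 of the 14 role lists and 119 on none.

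**Figure D4:**
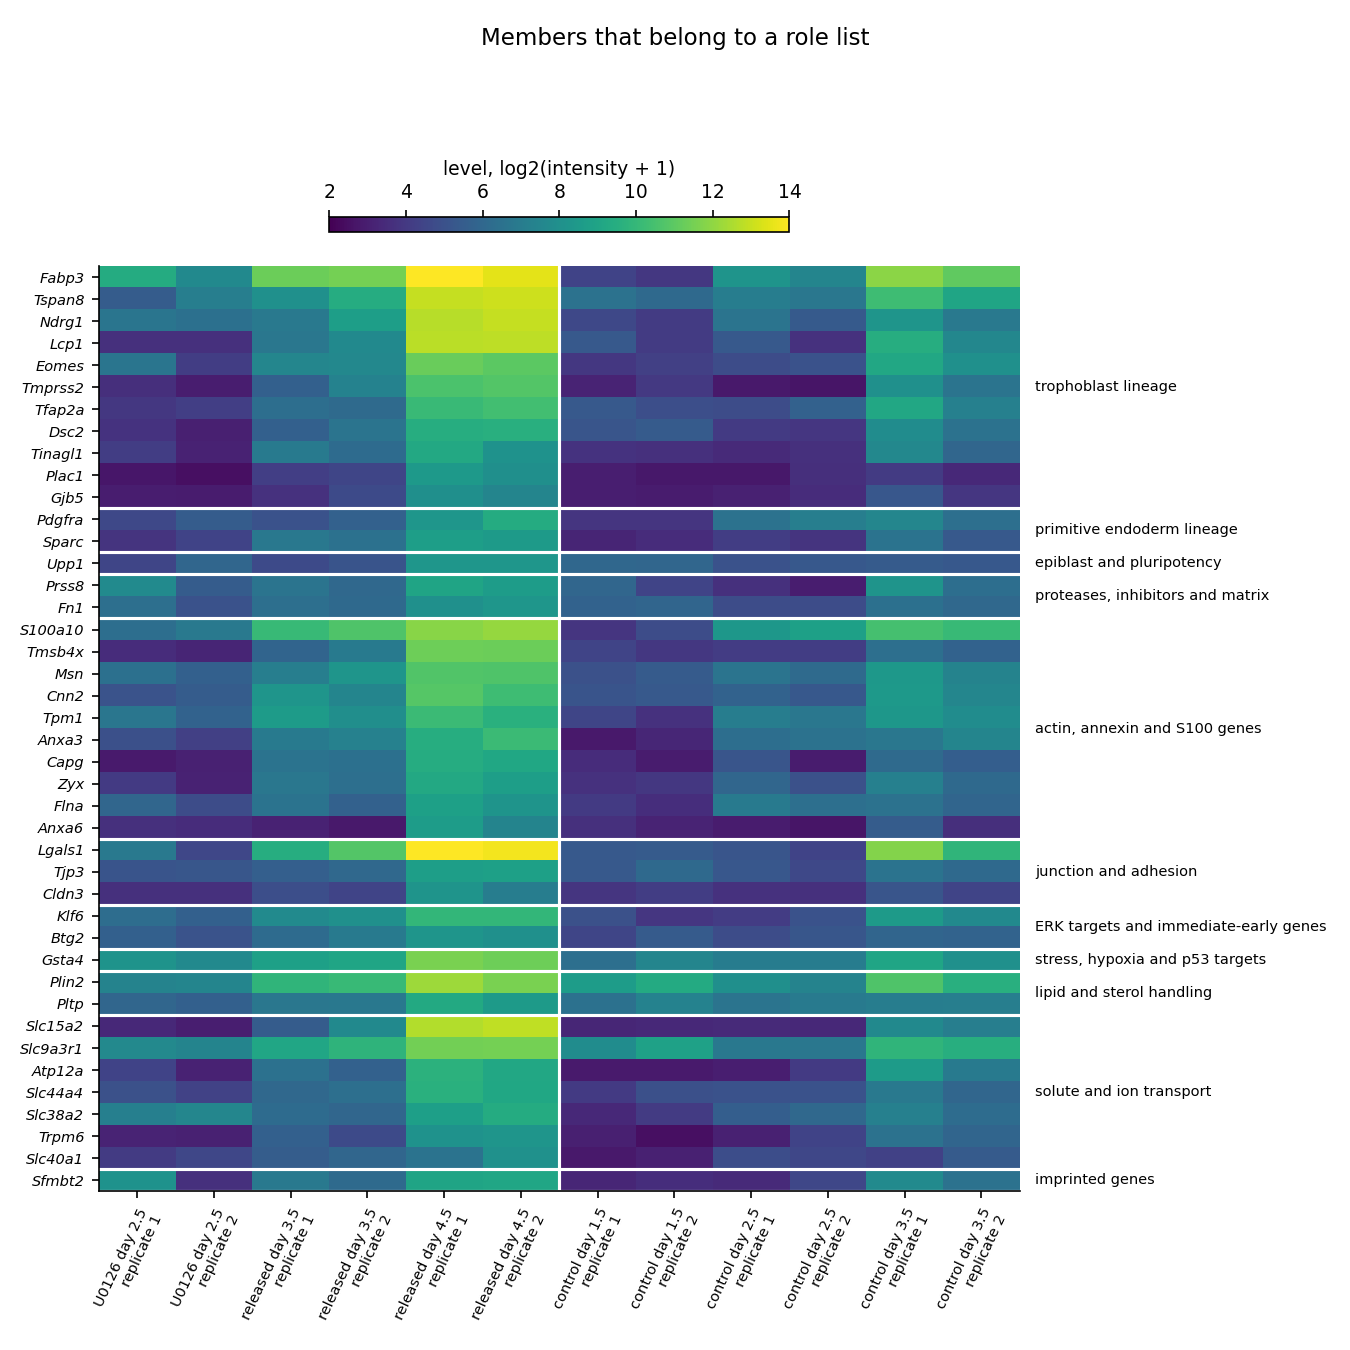
Level, log2(intensity + 1), on each array for the 42 members that stand on a role list, grouped by the first list that holds them, with U0126-exposed groups left of the white line and controls right of it. The 2 released day 4.5 columns hold the highest value of every row. Most trophoblast, junction and actin rows are brighter in the 8-cell and control day 3.5 columns than in the U0126 day 2.5 and control day 2.5 columns.

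From U0126 day 2.5 to released day 3.5 embryos, when the arrested embryos had resumed division, 84 of the 161 members rose (13.7% of tested genes rose) and 1 fell (14.5%). The median difference was 1.46 for members and -0.02 for tested genes. This contrast holds no array of released day 4.5 embryos, but the choice capped all groups below that level. Csta1, a cysteine protease inhibitor, was at 7.11 and 8.05 in released day 3.5 embryos and at 3.11 and 2.89 in U0126 day 2.5 embryos, a difference of 4.58 (SE 0.37, adjusted p = 3.81e-05). Laptm5, a lysosomal membrane protein known from blood cells, was at 7.89 and 9.13 in released day 3.5 and at 4.45 and 3.73 in U0126 day 2.5 embryos, a difference of 4.43 (SE 0.46, adjusted p = 0.000171). The arrays of these groups were well separated for both genes. Another tested probe set of Laptm5 differed by less, with 4.82 and 4.81 in released day 3.5 and 4.03 and 4.0 in U0126 day 2.5 embryos. Lgals1 rose by 4.41 (SE 0.76, adjusted p = 0.00219). Efhd2, a calcium-binding protein of the actin cytoskeleton, was at 8.95 and 9.82 in released day 3.5 and 5.48 and 5.41 in U0126 day 2.5 embryos, a difference of 3.94 (SE 0.38, adjusted p = 0.000106). By role, 9 of the 11 trophoblast members and 9 of the 11 actin, annexin and S100 members rose, as did 5 of 7 transport, 3 of 6 junction and 3 of 5 protease and matrix members. Counted whole, with members and all other tested genes, the trophoblast list had 21 of 38 genes that rose and 2 that fell (median difference 1.27). The actin, annexin and S100 list had 29 of 42 that rose and 1 that fell (median 1.82), and the junction list 18 of 38 and 0 (median 1.31). Transport genes rose in 14 of 31 cases and fell in 4 (median 1.16), and protease and matrix genes rose in 16 of 29 and fell in 1 (median 1.11). Slc38a2, a neutral amino acid transporter, was the member that fell. It was at 6.19 and 5.94 in released day 3.5 and 7.20 and 7.53 in U0126 day 2.5 embryos, a difference of -1.30 (SE 0.39, adjusted p = 0.0313). This last call was lost without U0126 day 2.5 replicate 1 (adjusted p = 0.0543) or 2 (0.125) and without released day 3.5 replicate 1 (0.0786) or 2 (0.139). Laptm5 was read by a probe set that can share probes with other genes, as the suffix of its name marks, and so were Ndrg1, Reep5, S100a10, Tpi1 and 4 further members. Another 17 members were read by probe sets whose suffix marks probes common to several transcripts, which can belong to different genes. Efhd2, Tmprss2 and Plekhh1 were among these 17.

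From control day 2.5 to control day 3.5 embryos, the undisturbed step, 94 of the 161 members rose (13.4% of tested genes) and 0 fell (8.28%), also 0 when the p was left unadjusted and held to 0.05. Members had a median difference of 1.70, against 0.09 for tested genes. Lgals1 rose by 6.05 (SE 0.76, adjusted p = 0.000806) and Laptm5 by 4.82 (SE 0.46, adjusted p = 0.000247). Laptm5 was at 9.08 and 8.39 in control day 3.5 and 3.64 and 4.19 in control day 2.5 embryos. Its other tested probe set was at 5.14 and 4.73 in control day 3.5 and 4.54 and 4.61 in control day 2.5 embryos. Adh1 rose by 4.71 (SE 0.85, adjusted p = 0.00391) and Tmprss2 by 4.56 (SE 0.56, adjusted p = 0.000741). The arrays of these control groups do not overlap for any of the 4 genes. By role, 8 of 11 trophoblast, 7 of 11 actin, 5 of 7 transport, 4 of 6 junction and 5 of 5 protease and matrix members rose. Counted whole, the trophoblast list had 15 of 38 genes that rose and 2 that fell (median difference 0.95). The actin list had 19 of 42 and 1 (median 0.93), and the junction list 12 of 38 and 3 (median 0.79). Transport genes rose in 12 of 31 cases and fell in 7 (median 0.58). Protease and matrix genes rose in 10 of 29 and fell in 1 (median 0.60). Without control day 3.5 replicate 1 the count of calls was 50, and without replicate 2 it was 105.

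The released and the undisturbed step had no array in common. Both steps raised 69 members (42.9%, against 6.90% of tested genes), and 52 passed the threshold in neither (32.3%, against 79.8%). The control step alone passed it in 25 (15.5%, against 6.46%) and the released step alone in 15 (9.32%, against 6.83%). The steps themselves differed, by an interaction in the same fit, in 3 members: the released step was larger in 1 (1.01% of tested genes) and smaller in 2 (1.99%). The interaction was added after the data had been seen. The smaller ones were Sirt3 (-1.96) and B3gnt5 (-4.37 by its chosen probe set), whose call held with each array left out. The larger one was Crip1 (2.20). Sirt3 and Crip1 lost their calls without most of the single arrays, with adjusted p up to 0.165 and 0.135. Gulp1 and Serpinb6b were among the 52, with differences of 0.29 and 0.31 in the released step and of 0.94 and 0.45 in the control step. Mbnl3, a splicing regulator singled out after its values were seen, was another of the 52 although it was high in released day 4.5 embryos. It was at 11.21 and 11.73 in released day 4.5 embryos, against 8.05 and 7.73 in U0126 day 2.5, 7.31 and 8.06 in released day 3.5, 6.12 and 5.89 in control day 1.5, 6.89 and 7.71 in control day 2.5 and 8.0 and 7.28 in control day 3.5 embryos, and its 2-cell arrays were the lowest of all. This holds for the chosen probe set. Another Mbnl3 probe set went from 3.1 and 2.4 to 6.1 and 5.2 in the control step. In the released step it went from 3.8 and 3.4 to 4.4 and 5.7. A further probe set had 3.4 and 4.0 in control day 2.5 and 4.0 and 3.2 in control day 3.5 embryos.

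Released day 3.5 embryos were also set against both neighbouring controls. Against control day 2.5 embryos, 75 members were higher (8.61% of tested genes) and 1 lower (4.05%), with a median difference of 1.47 for members and 0.09 for tested genes. Lgals1 was 5.34 (SE 0.76, adjusted p = 0.00289) higher, Laptm5 4.60 (SE 0.46, adjusted p = 0.000834), Tmprss2 3.74 (SE 0.56, adjusted p = 0.00363) and Csta1 3.63 (SE 0.37, adjusted p = 0.000878). The count was 34 without released day 3.5 replicate 2 and 43 without control day 2.5 replicate 2. Against control day 3.5 embryos, 0 members were higher (0.302% of tested genes, and 4 members at an unadjusted p under 0.05) and 1 was lower (0.0101%, and 18 members unadjusted). The median difference was -0.22. The count of 0 higher was also 0 in every other setting that was run for this contrast. Acss1, a mitochondrial enzyme that makes acetyl-CoA from acetate, was the lower one, at 3.23 and 3.09 in released day 3.5 embryos, against 4.17 and 4.49 in control day 2.5 and 5.91 and 4.90 in control day 3.5 embryos. The difference was -2.25 (SE 0.33, adjusted p = 0.0234) from control day 3.5 and -1.17 (SE 0.33, adjusted p = 0.0444) from control day 2.5, and both contrasts share the released day 3.5 arrays. The call against control day 3.5 was lost without control day 3.5 replicate 1 (adjusted p = 0.26), without released day 3.5 replicate 1 (0.104) or 2 (0.181) and without control day 1.5 replicate 1 or 2 (0.0606 each). The call against control day 2.5 was lost in 8 of the 12 settings that left out 1 array, with adjusted p up to 0.218, namely those without an array of control day 1.5, control day 2.5, released day 3.5 or released day 4.5 embryos.

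**Figure D5:**
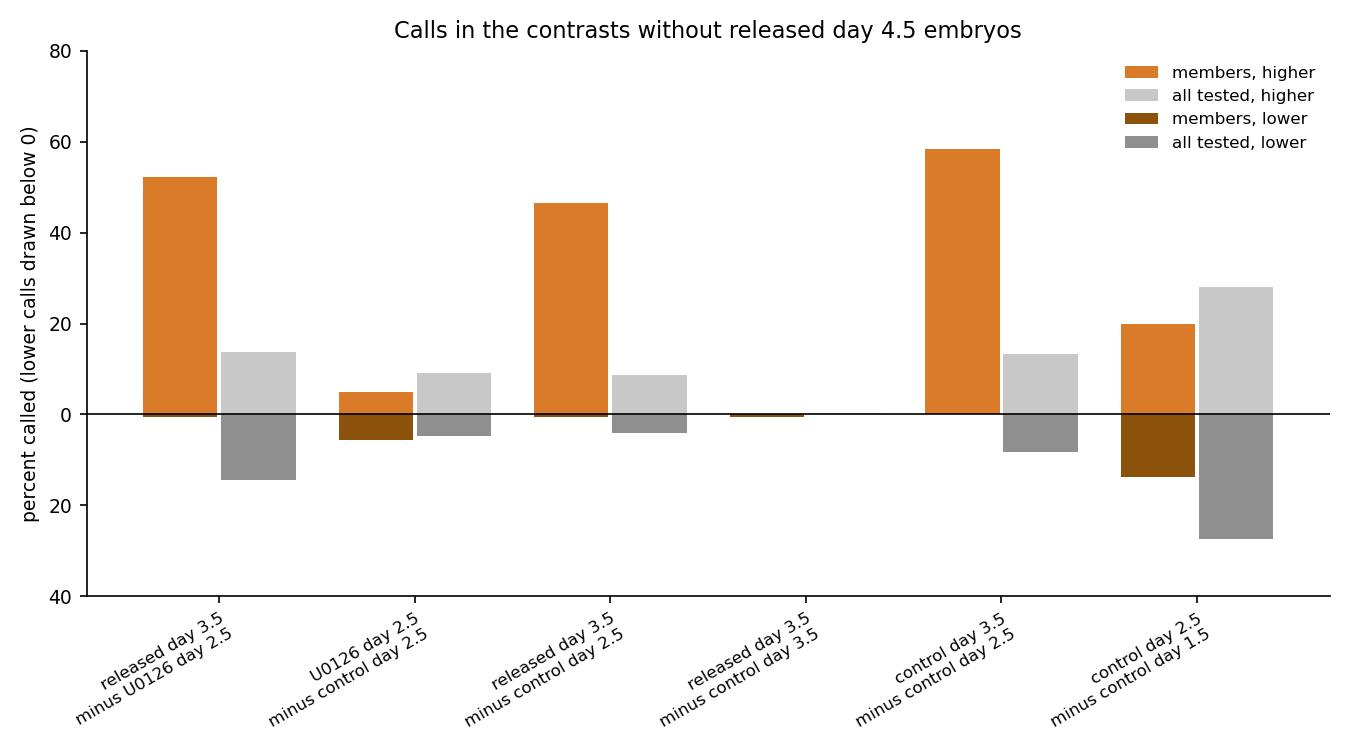
Percent of the 161 members and of the 9930 tested genes called by limma at an adjusted p under 0.05 in the 6 contrasts without released day 4.5 embryos, with higher calls above 0 and lower calls below. Members rise more often than tested genes in released day 3.5 against U0126 day 2.5 or control day 2.5 embryos (52.2% and 46.6%) and in control day 3.5 against control day 2.5 embryos (58.4%).

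During the arrest itself 17 of the 161 members were called. Between U0126 day 2.5 and control day 2.5 embryos, 8 members were higher (4.97%, against 9.21% of tested genes) and 9 lower (5.59%, against 4.72%). The median difference was 0.04 for members and 0.12 for tested genes. With the arrays centred on their medians, or quantile-normalized, 4 were higher and 12 lower. The total of 17 calls fell to 6 without control day 2.5 replicate 1 and to 4 without replicate 2. B3gnt5, the enzyme that begins lacto-series glycolipids, was at 6.63 and 6.44 in U0126 day 2.5 embryos and at 3.50 and 3.64 in control day 2.5 embryos, a difference of 2.97 (SE 0.36, adjusted p = 0.00143). Sirt3, a mitochondrial deacetylase, was at 5.57 and 5.57 in U0126 day 2.5 and 3.62 and 3.78 in control day 2.5 embryos, a difference of 1.87 (SE 0.32, adjusted p = 0.00528). For both, no U0126 array overlapped a control array, and both calls held with each array left out. This holds for the chosen probe sets. Another B3gnt5 probe set, below the level for a test, read 3.3 and 3.0 in U0126 day 2.5 and 3.0 and 3.1 in control day 2.5 embryos. Reep5, which shapes the endoplasmic reticulum, was higher by 1.75 (SE 0.32, adjusted p = 0.00748), though not without control day 2.5 replicate 2 (0.0554). Prss8 had a larger but less even difference, 3.30 (SE 0.78, adjusted p = 0.0205), which was lost without U0126 day 2.5 replicate 1 (0.121) or control day 2.5 replicate 1 (0.0684) or 2 (0.111).

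The 4 largest differences among the 9 lower calls under U0126 were those of Havcr1, S100a10, Gng2 and Zyx. Havcr1, a receptor for phosphatidylserine on dying cells, was at 5.96 and 7.57 in U0126 day 2.5 embryos and 8.79 and 9.32 in control day 2.5 embryos, a difference of -2.29 (SE 0.44, adjusted p = 0.00879). Another tested Havcr1 probe set differed by less, with 5.07 and 5.01 in U0126 day 2.5 and 5.69 and 5.29 in control day 2.5 embryos. S100a10 differed by -1.99 (SE 0.38, adjusted p = 0.00878). Its other tested probe set was also lower, with 4.0 and 3.62 in U0126 day 2.5 and 5.49 and 5.61 in control day 2.5 embryos. Both calls were lost without control day 2.5 replicate 2 (0.0595 for Havcr1 and 0.0602 for S100a10). Gng2, a G protein subunit, was at 5.06 and 3.15 in U0126 day 2.5 and 5.83 and 6.19 in control day 2.5 embryos, a difference of -1.90 (SE 0.48, adjusted p = 0.0268). It was lost without U0126 day 2.5 replicate 2 (0.0622) or control day 2.5 replicate 1 (0.0852) or 2 (0.129). Another tested Gng2 probe set was low in both groups, with 3.16 and 3.04 in U0126 day 2.5 and 3.34 and 3.30 in control day 2.5 embryos. Zyx encodes zyxin of focal adhesions and was at 4.02 and 3.13 in U0126 day 2.5 and 5.96 and 4.99 in control day 2.5 embryos. Its difference of -1.90 (SE 0.46, adjusted p = 0.0233) was lost without U0126 day 2.5 replicate 2 (0.105) or control day 2.5 replicate 1 (0.162).

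Between control day 1.5 and control day 2.5 embryos, 32 members rose (28.0% of tested genes) and 22 fell (27.4%). Ptgr1, which reduces prostaglandins and other reactive carbonyls, was at 9.76 and 9.50 in control day 2.5 and 4.28 and 4.66 in control day 1.5 embryos, a rise of 5.16 (SE 0.36, adjusted p = 1.29e-06). Plekhh1 was at 7.94 and 7.58 in control day 2.5 and 2.99 and 3.05 in control day 1.5 embryos, a rise of 4.74 (SE 0.24, adjusted p = 2.39e-07). By the chosen probe sets neither gene overlapped between these groups. Another tested Plekhh1 probe set did, with 5.06 and 3.96 in control day 2.5 and 4.64 and 3.51 in control day 1.5 embryos. A further one did not overlap but rose by less, from 3.48 and 4.33 to 5.74 and 5.15. Efhd2 rose by 4.51 (SE 0.38, adjusted p = 4.31e-06) and S100a10 by 4.25 (SE 0.38, adjusted p = 6.81e-06). Slc22a5 was at 3.91 and 5.03 in control day 2.5 and 7.65 and 7.0 in control day 1.5 embryos, a difference of -2.85 (SE 0.52, adjusted p = 0.000816). Laptm5 was at 3.64 and 4.19 in control day 2.5 and 6.31 and 7.01 in control day 1.5 embryos, a difference of -2.74 (SE 0.46, adjusted p = 0.000512). Prxl2a, a peroxiredoxin-like protein, changed by -1.98 (SE 0.45, adjusted p = 0.00325). Tpi1, an enzyme of glycolysis, changed by -1.94 (SE 0.37, adjusted p = 0.00114). By their chosen probe sets these 4 genes were thus present in 2-cell embryos, lower at day 2.5 and high again in released day 4.5 embryos, where Laptm5 was at 10.80 and 10.37, Prxl2a at 10.13 and 10.73 and Tpi1 at 10.82 and 10.27. Another tested probe set of Laptm5 did not fall, with 4.22 and 4.12 in control day 1.5 and 4.54 and 4.61 in control day 2.5 embryos.

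Other probe sets of the same genes gave a second reading. Of the members, 103 had 197 further probe sets, and 95 of these reached the level needed for a test. Among the 95, 90 were highest in released day 4.5 embryos, 62 by at least 1.5, with a median margin of 1.79. The 5 others belonged to Bbip1 (2 probe sets), Cgnl1, Rab11fip4 and Reep5. The second probe set of Cgnl1 was highest in control day 1.5 embryos, with a margin of -1.10. The chosen probe set was the brightest of each gene by rule.

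Some members were neighbours in the genome. Gm12169 and BC053393 follow each other on chromosome 11, and Dkkl1 and Tead2 on chromosome 7. On chromosome 16, Fam162a and Csta1 are separated by 1 gene, Ccdc58. Gm12169 was at 9.14 and 9.50 in released day 4.5 embryos, against 3.22 and 3.38 in U0126 day 2.5, 5.73 and 6.65 in released day 3.5, 3.10 and 3.19 in control day 1.5, 3.69 and 3.78 in control day 2.5 and 7.36 and 7.17 in control day 3.5 embryos. As for BC053393, its control day 3.5 group was next highest and its released day 3.5 group came after that. Dkkl1 was at 9.44 and 8.90 in released day 4.5 embryos, against 7.21 and 5.64 in control day 3.5 embryos, and Tead2, a DNA-binding partner of the Hippo pathway, at 7.69 and 6.88 against 6.29 and 4.69.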

How the data were processed

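RNA of mouse embryos was hybridised to 12 arrays of Affymetrix type Mouse Genome 430 2.0, in 6 groups of 2. The deposited values are linear intensity values per probe set; GCRMA is named by the submitters' processing notes, and GCOS 1.2 and GeneSpring 7.3 by the series' design text. Further steps of the authors are not given in the sources used here. The unit has no absolute scale. Array medians of the intensity were 10.8 to 11.5. The number of arrays limits the precision.

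Of 45101 probe sets, 34958 had 1 gene symbol, 932 several and 9211 none. The probe set with the highest mean stood for each of 18194 genes. From the deposited intensity, log2(intensity + 1) was computed, with no further normalization, and differences are on that scale. Genes at 5 or more on at least 2 arrays were tested (9930). All arrays entered 1 fit in limma 3.58.1 (R 4.3.3) with a mean per group, 6 residual degrees of freedom and 4.51 more from the prior. Calls used a Benjamini-Hochberg adjusted p under 0.05 over all tested genes. The code was tested on simulated data.

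The members, the role lists, the markers of other cell types and the motifs were chosen with earlier results of these data known. Genes were named by a rule: the 12 largest margins, the 8 highest levels, the 4 largest rises and falls among calls in each of 6 contrasts, the 4 highest members of each list, those at the limits of the choice, those with disagreeing probe sets and chromosomal neighbours. This named 56 members. Further members were named to complete a list or, as Crip1, because their steps differed. Genes singled out after their values were seen are marked as such. Differences between same-numbered arrays correlated with r from 0.125 to 0.417 in all 15 pairs of groups, each above 0.1, so the replicate numbers, which come from the sample titles, were taken to pair the samples. A fit with the replicate as a block was an alternative, beside another pseudocount, filters, scalings, probe set rules and fits without single arrays. Promoters and gene order came from RefSeq tables of GRCm38.p6, and all 161 members had an entry in the gene table.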

Additional observations from a re-analysis of the deposited data

Results flagged for a closer look

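For 3 members the change of released day 3.5 over U0126 day 2.5 embryos (the released step) differed from that of control day 3.5 over control day 2.5 embryos (the control step) in a test of the difference itself, an interaction in limma's fit that was added after the data had been seen. Over all tested genes, 1.01% had a larger released step and 1.99% a smaller one. B3gnt5 changed by 0.18 (SE 0.36) in the released step and by 4.55 (SE 0.36) in the control step, a difference of -4.37 (SE 0.51, adjusted p = 0.00582). This call held in every alternative run for it, with adjusted p from 0.00464 to 0.0269. The steps of B3gnt5 are those of the chosen probe set. Another B3gnt5 probe set, below the level for a test, showed neither step. It read 3.0 and 3.1 in control day 2.5 and 3.1 and 3.0 in control day 3.5 embryos. In U0126 day 2.5 embryos it read 3.3 and 3.0, and in released day 3.5 embryos 3.1 and 3.0. Sirt3 changed by 0.09 (SE 0.32) in the released step and by 2.04 (SE 0.32) in the control step, a difference of -1.96 (adjusted p = 0.0464), and it ranged from 0.0339 to 0.165 over the alternatives. Both genes were already higher in U0126 day 2.5 than in control day 2.5 embryos. Crip1, which encodes a small LIM domain protein, changed by 2.78 (SE 0.34) in the released step and by 0.57 (SE 0.34) in the control step, a difference of 2.20 (SE 0.49, adjusted p = 0.0393). Its adjusted p ranged from 0.0204 to 0.135 over the alternatives and passed the threshold in 1 of the 12 that left out an array, that without U0126 day 2.5 replicate 1 (0.0212). The adjusted p of Sirt3 passed in the 2 that left out an array of control day 1.5 embryos (0.0457 each).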

How the results depend on the processing

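The limits of the choice set the number of genes. A margin of at least 1 gave 339 genes and one of at least 2 gave 80, the mean of all probe sets gave 100 (92 of them members), and the limits applied to single arrays gave 75. Leaving out 1 array gave 112 to 208 members. Other pseudocounts, scalings and level limits kept the number within 1.5 times 161. The calls of members between U0126 day 2.5 and control day 2.5 embryos, 17 as reported, were 7 with no filter on low values, 0 with the 4 arrays compared fitted alone and 4 to 17 with 1 array left out. Between released day 3.5 and control day 3.5 embryos the 1 call became 0 with a pseudocount of 32, with no filter, with the mean of all probe sets and with the 4 arrays alone, and 0 to 4 with 1 array left out. With 1 array left out, released day 3.5 against U0126 day 2.5 embryos gave 59 to 89 calls (85 as reported), released day 3.5 against control day 2.5 gave 34 to 84 (76), control day 3.5 against control day 2.5 gave 50 to 105 (94) and control day 2.5 against control day 1.5 gave 37 to 57 (54). The fit with the replicate block gave 96, 21, 87, 1, 109 and 58 calls in the 6 contrasts, in the order in which the report's plot of calls shows them, and no count moved by over 1.5 times. The pairing changed no call of a member named in the report for that contrast. For 137 calls of named members there were 2869 recomputed values. Of these, 2604 kept direction and call, 265 kept direction and lost the call, and 0 changed direction; 76 of the 137 calls held throughout. With 2 arrays per group, small differences cannot be resolved, and levels near the array's background have uncertain size.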
